A study of Mus musculus with 8 samples.

Results

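The G1 control genes described here are the 3 D cyclins (Ccnd1, Ccnd2 and Ccnd3), their kinases Cdk4 and Cdk6, the inhibitors Cdkn1b and Cdkn2c, and the retinoblastoma genes Rb1, Rbl1 and Rbl2. They are 10 of the 24539 genes in the count table, and all 10 passed the filter on low counts. The genes were chosen by name, with the additional observation that Ccnd1 is high only in the Smo KO libraries. The levels of Ccnd1 are therefore given as a description with no test, and the other 9 genes were tested.

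The D cyclins are made in response to growth signals and bind Cdk4 or Cdk6. The complexes phosphorylate Rb1 and its relatives Rbl1 (p107) and Rbl2 (p130), which releases E2F transcription factors and lets a cell pass from G1 into S phase. Cdkn2c (p18) blocks Cdk4 and Cdk6 directly, whereas Cdkn1b (p27) binds cyclin and kinase complexes. In the developing kidney, nephron progenitors divide to renew themselves or leave this state to form the renal vesicle, the first epithelial stage of the nephron. D cyclins are known as targets of Hedgehog and of Wnt signalling in several tissues.

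The study sequenced polyadenylated RNA of sorted mouse nephron progenitors. Kidneys were taken at E18.5 and cells sorted by Six2GFPcre, a transgene whose GFP and Cre fusion protein is made in these progenitors. All 8 libraries carry this transgene, and each of the 4 groups has 2 libraries. The KO group is Smo c/c, with 2 conditional alleles of Smo, which carries Hedgehog signals across the cell membrane. The Het group is Smo c/+, with 1 conditional and 1 wild-type allele, and the WT group is Smo +/+. The SmoM2 group is Rosa26 SmoM2/+ on a Smo +/+ background and makes an active form of Smo after Cre recombination. Cre acts only where Six2GFPcre is made, and the labels do not say whether a library came from 1 embryo or several. They do not say either whether replicates were separate animals, so p-values measure the spread between these libraries.

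Total counts ranged from 4422305 to 10305398, with the KO libraries lowest. Six2, the gene that defines the sorted cells, lay between 1132 and 2105 CPM (counts scaled to library size) in all 8 libraries. Smo averaged 12.1 ± 1.39 CPM (SD, n = 2) for KO, 19.2 ± 6.73 for Het, 369 ± 8.48 for WT and 617 ± 17.1 for SmoM2. The Het level went against its label, so groups are called KO-, Het-, WT- and SmoM2-labelled below, or the pair of that label. Xist and Y-linked counts showed 2 male KO-labelled and 2 female Het-labelled libraries, with 1 of each sex in the other groups. A difference between the KO- and Het-labelled libraries therefore cannot be told apart from a sex difference within these groups. A set of 8 dissociation stress genes summed to 6678 and 6695 CPM in the Het pair, 3072 and 4774 in the KO pair, 2420 and 2527 in the WT pair and 2746 and 4036 in the SmoM2 pair. Both Het-labelled libraries lay above all others, so a stress score cannot be cleanly separated from the Het label.

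Per length, in the authors' RPKM values (reads scaled to gene length and library size), Cdk4 was by far the highest of the 10 genes with a mean of 314.0 over the 8 libraries. Ccnd3 followed with 63.5, Ccnd1 with 37.9, Cdkn1b with 21.2 and Ccnd2 with 14.2. Rbl1 (5.23), Rbl2 (4.59), Cdkn2c (2.90) and Rb1 (2.197) were low, and Cdk6 was lowest at 0.723. Cdk4 stood above 99.1% of the tested genes, and Cdk6 above 10.3%. Progenitors thus held Cdk4 transcripts in large excess over those of Cdk6, with a ratio between 236 and 1257 in single libraries.

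Ccnd1, the cyclin by which the group was chosen, lies at chr7:144929931-144939925 on the minus strand of GRCm38. Its level was 361 and 452 CPM in the KO pair, 29.4 and 72.5 in the Het pair, 52.7 and 153 in the WT pair and 101 and 160 in the SmoM2 pair. Both KO-labelled libraries lay above all 6 others, which overlapped between the WT-labelled group and each of its neighbours. The lower KO-labelled library was 2.26 times the highest library outside that group. By group means the order was KO (407 ± 64.4 CPM, SD, n = 2), SmoM2 (130 ± 41.4), WT (103 ± 71.0) and Het (51.0 ± 30.5). The SmoM2- and WT-labelled levels, and the WT- and Het-labelled levels, did not differ beyond their spread. The fitted KO level was 3.96-fold the WT, 8.05-fold the Het and 3.12-fold the SmoM2 level. On the log2 scale the KO against WT difference was 1.99, with 2.92 without WT-labelled replicate 2 and 1.39 without WT-labelled replicate 1. The KO against Het difference was 3.01, with 3.78 without Het-labelled replicate 2 and 2.49 without Het-labelled replicate 1. Over the 16 alternatives these differences ran from 1.39 to 2.92 and from 2.49 to 4.10, and that of KO against SmoM2, at 1.64, from 1.35 to 2.21. A position above all 6 other libraries was held by 13.1% of the tested genes in the KO-labelled group.

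Early nephron markers were, like Ccnd1, higher in both KO-labelled libraries than in all 6 others. The summed level of Lhx1, Pax8, Wnt4, Fgf8, Jag1, Dll1, Cdh1 and Bmp2 was 999.9 and 1219.8 CPM in the KO-labelled libraries. It ranged from 351 to 687 CPM in the 6 others, where the order of the group means, Het (581), WT (473) and SmoM2 (406), was the reverse of that of Ccnd1. Neighbouring groups in this order overlapped, at 475 and 687 CPM for Het, 433 and 512 for WT and 351 and 460 for SmoM2, as they did for Ccnd1. The 8 markers were counted in every group except for 1 that was at 0 in both Het-labelled libraries. Ureteric bud markers, of which 1 of 8 was at 0 in the KO pair and 1 in the Het pair, summed to 33.3 and 35.2 CPM in the KO pair and 25.9 and 29.6 in the Het pair. They were higher in the WT pair, at 39.9 and 41.1 CPM, and in the SmoM2 pair, at 61.0 and 73.7 CPM. Of these 8 markers, 4 had at most 3 counts in each KO-labelled library. The number was 3 in the Het pair, 2 in the WT pair and 3 in the SmoM2 pair, so the sums rest on few genes. Fewer cells of a type and less RNA per cell cannot be told apart in these bulk samples, and the part of either marker list in the Ccnd1 level was not tested.

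**Figure D1:**
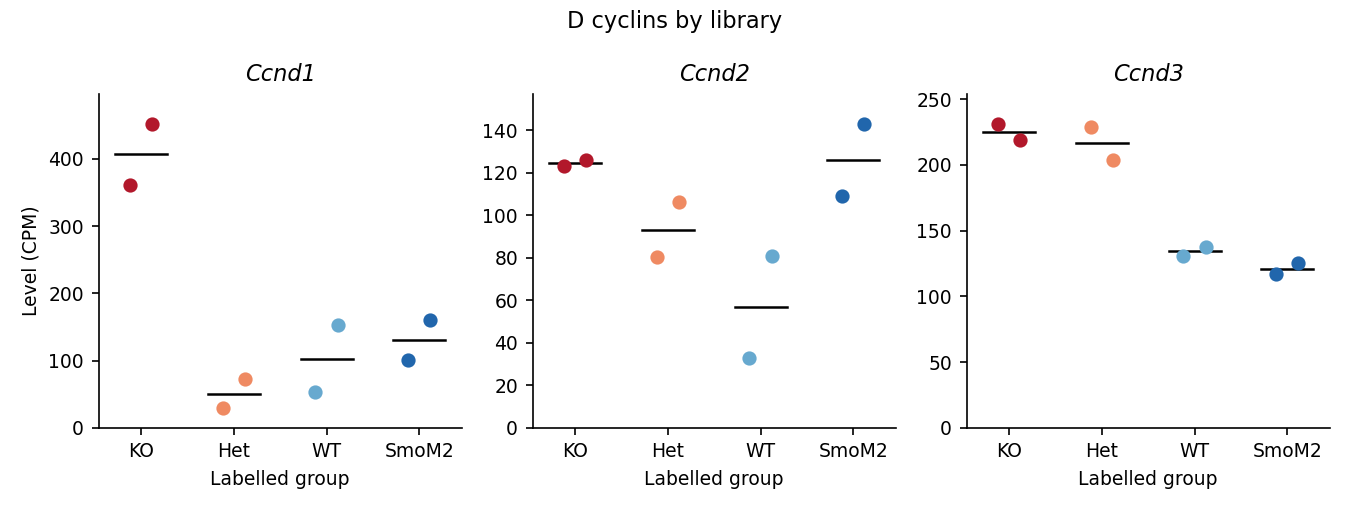
Levels of Ccnd1, Ccnd2 and Ccnd3 in CPM on linear axes from 0, by labelled group; points are the 2 libraries of a group and bars their mean. Both KO points stand apart for Ccnd1 (361 and 452), Ccnd2 is lowest in a WT library (33.0), and Ccnd3 is higher in all 4 KO and Het libraries than in the WT and SmoM2 libraries.

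Ccnd2, a D cyclin known for its regulation by growth factor signals, lies at chr6:127125162-127152193 on the minus strand. It was at 123 and 126 CPM in the KO pair, 80.2 and 106 in the Het pair, 33.0 and 80.7 in the WT pair and 109 and 143 in the SmoM2 pair. WT-labelled replicate 1 was the lowest, and WT-labelled replicate 2 overlapped with the Het pair. The 2 WT values differed more than those of any other group. Ccnd2 rose in KO- against WT-labelled libraries with a log2 difference of 1.14 (SE 0.31; adjusted p 0.0241 by edgeR). This call was lost without KO-labelled replicate 1 (adjusted p 0.0982), KO-labelled replicate 2 (0.0800) or WT-labelled replicate 1, where the change was 0.61 (0.0699). It was also lost with DESeq2 (0.0742) and with the stress score as a covariate, at 0.86 (0.212). Without WT-labelled replicate 2 the change was 1.89. SmoM2 and WT differed by as much, but the value of 1.15 (SE 0.31, edgeR adjusted p 0.244) missed the threshold. It passed in 4 of the 16 alternatives, among them without WT-labelled replicate 2, at 1.94 (adjusted p 0.00381), and with sex as a covariate (0.0336). The Het- against WT-labelled difference was 0.72 (SE 0.31, edgeR adjusted p 0.113), and it was 1.47 without WT-labelled replicate 2 (adjusted p 0.00166). KO- and SmoM2-labelled levels, at 125 ± 2.08 and 126 ± 24.1 CPM (SD, n = 2), overlapped.

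Ccnd3, the D cyclin with the highest level per length in 7 of 8 libraries, was separated by the 4 groups in another way. It lies at chr17:47505051-47599691 on the plus strand. Its level was 231 and 219 CPM in the KO-labelled and 229 and 204 in the Het-labelled libraries. It was 131 and 138 CPM in the WT-labelled and 117 and 125 in the SmoM2-labelled libraries. All 4 libraries with low Smo lay above all 4 with high Smo, and KO- and Het-labelled libraries overlapped. The share of all tested genes with such a separation by Smo level was not counted, here or for the genes below. Ccnd3 rose by 0.74 (SE 0.12, edgeR adjusted p 0.00177) in KO- and by 0.69 (SE 0.12, edgeR adjusted p 0.00219) in Het- against WT-labelled libraries. Against SmoM2-labelled libraries the changes were 0.89 (SE 0.12, edgeR adjusted p 0.000351) and 0.84 (SE 0.12, edgeR adjusted p 0.000456). These 4 comparisons share libraries and are not separate evidence. With the stress score as a covariate, the Het- against WT-labelled and Het- against SmoM2-labelled calls were lost (adjusted p 0.289 and 0.0517), with changes of 0.67 and 0.83. This score was highest in both Het-labelled libraries and cannot be cleanly separated from that label. The 2 calls with KO-labelled libraries were kept in all 16 alternatives.

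RefSeq lists 2 start sites of Ccnd3, and the bases before each are shown because Ccnd3 was called in the most comparisons. The first stretch (GRCm38.p6, chr17:47504801-47505050, plus strand) ends just before the gene. The second (chr17:47593217-47593435, plus strand) lies inside the gene outside its annotated exons. Cdk6 and Cdkn1b, also called below, are shown with them. The Cdk6 stretch (chr5:3343789-3343892, plus strand) lies inside the gene as GENCODE draws it, outside its exons, and the Cdkn1b stretch (chr6:134920151-134920400, plus strand) ends just before its gene. Capitals mark matches on either strand to the searched motifs.
Ccnd3, first start: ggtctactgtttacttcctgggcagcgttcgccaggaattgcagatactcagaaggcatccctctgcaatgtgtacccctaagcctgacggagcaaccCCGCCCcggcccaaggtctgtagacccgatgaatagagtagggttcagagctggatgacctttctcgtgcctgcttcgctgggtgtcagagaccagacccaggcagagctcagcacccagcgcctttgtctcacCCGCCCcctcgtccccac
Ccnd3, second start: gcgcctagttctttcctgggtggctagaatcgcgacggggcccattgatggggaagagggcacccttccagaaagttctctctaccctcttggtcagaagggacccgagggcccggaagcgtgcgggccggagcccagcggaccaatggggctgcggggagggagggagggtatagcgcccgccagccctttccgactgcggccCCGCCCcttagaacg
Cdk6: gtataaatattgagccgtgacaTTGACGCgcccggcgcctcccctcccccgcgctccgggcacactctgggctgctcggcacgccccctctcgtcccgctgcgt
Cdkn1b: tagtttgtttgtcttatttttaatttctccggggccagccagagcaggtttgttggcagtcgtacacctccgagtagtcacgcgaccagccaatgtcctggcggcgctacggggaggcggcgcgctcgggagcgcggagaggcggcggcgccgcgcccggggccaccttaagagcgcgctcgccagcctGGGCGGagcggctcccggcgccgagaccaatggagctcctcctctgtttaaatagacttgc

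The motifs were the GLI core ACCACCC, the E2F core TTNNCGC, the TCF/LEF motif CTTTGA, the CRE motif TGACGT and the GC box GGGCGG, searched on both strands in the 250 bases before each start. A match to the E2F core and one to the GC box can share letters. Of the 10 genes, 7 had an entry (all but Ccnd1, Ccnd2 and Rb1). Ccnd3 and Cdkn2c each had a second window, so genes named below and shares of all windows are unlike counts. The letters of the GLI core were in none of their windows, and are in 3.93% of all 32817 windows of that length. Matches to the E2F core were in the windows of Cdk4, Cdk6, Cdkn2c and Rbl1, and are in 17.0% of all windows. The GC box was in windows of Ccnd3, Cdk4, Cdkn1b, Cdkn2c and Rbl1 and is in 32.7% of all windows. The CRE motif was in the second Ccnd3 window, beyond the stretch shown, and is in 6.46% of all windows. Cdk4 held the TCF/LEF motif, which is in 13.8% of all windows. A match describes letters and not a bound site.

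**Figure D2:**
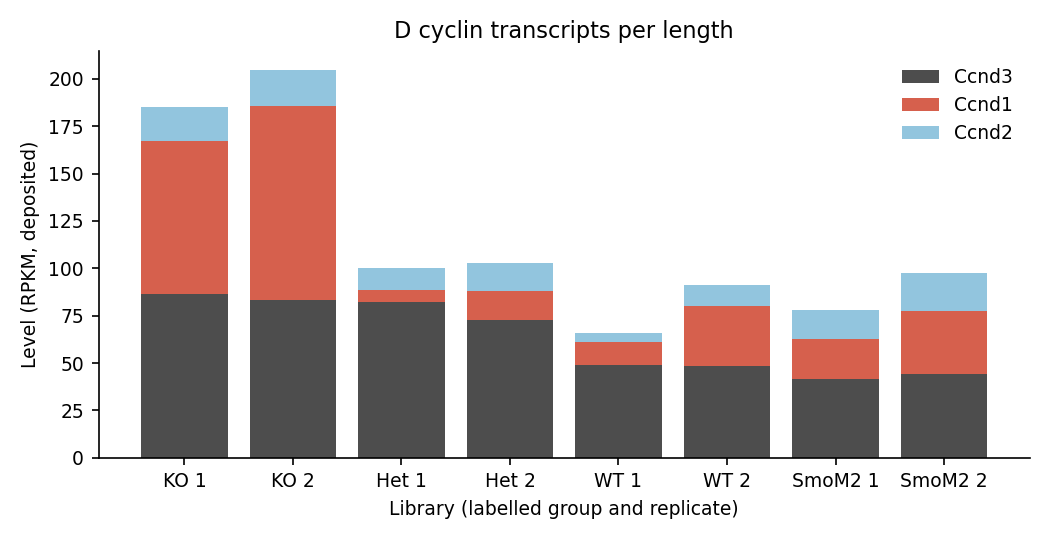
Deposited RPKM values of Ccnd3, Ccnd1 and Ccnd2, stacked for each of the 8 libraries on a linear axis from 0. The KO bars reach 185 and 205 RPKM, the others between 65.7 and 103, and Ccnd1 makes up most of the gap between the KO and Het bars.

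Summed per length, the 3 D cyclins reached 185 and 205 RPKM in the KO-labelled libraries. They reached 100.02 and 103 RPKM in the Het-labelled, 65.7 and 91.3 in the WT-labelled, and 77.8 and 97.4 in the SmoM2-labelled libraries. Ccnd1 made up 43.5% and 50.1% of that sum in the KO-labelled and 6.30% and 14.95% in the Het-labelled libraries. Its share was 17.9% and 35.0% in the WT-labelled and 27.4% and 34.4% in the SmoM2-labelled libraries. The KO- and Het-labelled libraries therefore had like levels of Ccnd3 with the highest and the lowest shares of Ccnd1. Ccnd2 and Ccnd3 together summed to 105 and 102 RPKM in the KO-labelled and 93.7 and 87.6 in the Het-labelled libraries. In the WT- and SmoM2-labelled libraries this sum lay between 54.0 and 63.9 RPKM. Since Ccnd1 was chosen for its level, these shares are a description.

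Cdk4, the D cyclin kinase with the higher level, was at 598 and 607 CPM in the KO pair, 507 and 481 in the Het pair, 399 and 509 in the WT pair and 462 and 554 in the SmoM2 pair. Both KO-labelled libraries were above all 6 others, while the remaining groups overlapped. KO and WT differed by 0.41 (SE 0.15, edgeR adjusted p 0.0629), short of the threshold. It passed in 6 of the 16 alternatives, among them without WT-labelled replicate 2, at 0.57 (adjusted p 0.0356), and with DESeq2 (0.0488). The adjusted p ran from 0.00566 to 0.672 over all 16. Cdk4 was called in no other comparison, with edgeR adjusted p of at least 0.217.

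Cdk6, the other D cyclin kinase, was counted with 19 to 174 reads per library. Its level was 9.08 and 4.14 CPM in the KO pair, 5.35 and 4.76 in the Het pair, 9.88 and 16.2 in the WT pair and 12.5 and 20.1 in the SmoM2 pair. The 4 libraries with low Smo lay below the 4 with high Smo. Cdk6 changed by -1.36 from WT to Het (SE 0.38, edgeR adjusted p 0.0235) and by -1.68 from SmoM2 to Het (SE 0.38, edgeR adjusted p 0.00627). In KO- against SmoM2-labelled libraries it changed by -1.30 (SE 0.39, edgeR adjusted p 0.0246). The KO- against WT-labelled difference of -0.98 (SE 0.39, edgeR adjusted p 0.0898) did not pass. It did without WT-labelled replicate 1, at -1.32 (adjusted p 0.0465), and without a filter on low counts (0.00525). It was -1.65 without KO-labelled replicate 1, -0.52 without KO-labelled replicate 2 and -0.61 without WT-labelled replicate 2, and did not pass there.

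Of the 3 Cdk6 calls, 2 were lost when single libraries were left out. In Het- against WT-labelled libraries the adjusted p was 0.0862 without Het-labelled replicate 1, 0.113 without Het-labelled replicate 2 and 0.127 without WT-labelled replicate 2. In KO- against SmoM2-labelled libraries it was 0.167 without KO-labelled replicate 2, where the change was -0.84, and 0.140 (-0.96) without SmoM2-labelled replicate 2. The change was -1.97 without KO-labelled replicate 1. Cdk6 is also the longest of the 10 genes, at 11522 bases. With each library's trend over gene length removed, the KO- against SmoM2-labelled change was -0.73 (adjusted p 0.214) and the Het- against WT-labelled change -1.16 (adjusted p 0.0570), and neither passed. The first was also lost with sex as a covariate, at -0.91 (adjusted p 0.0631), and the second with the stress covariate, at -1.42 (adjusted p 0.497). The Het- against SmoM2-labelled call was lost with the stress covariate, at -1.72 (adjusted p 0.159), and kept in the other 15 alternatives.

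Cdkn1b, which encodes p27, was lowest in the Het-labelled libraries. It was at 58.2 and 71.0 CPM in the KO pair, 42.8 and 51.3 in the Het pair, 59.3 and 66.2 in the WT pair and 80.1 and 67.8 in the SmoM2 pair. The Het-labelled libraries lay below all others, a position whose share among all tested genes was not counted. KO- and WT-labelled libraries overlapped. From SmoM2 to Het, Cdkn1b changed by -0.66 (SE 0.15, edgeR adjusted p 0.00747). It did not pass without Het-labelled replicate 1 (-0.57, adjusted p 0.0648), without SmoM2-labelled replicate 1 (-0.53, adjusted p 0.0556) or with the stress covariate (adjusted p 0.161). Smaller differences of Cdkn1b did not pass, at -0.42 between Het and WT (SE 0.15, edgeR adjusted p 0.0667) and at 0.46 between KO and Het (SE 0.16, edgeR adjusted p 0.0867). The first passed without a filter on low counts (0.0362) and with the length trend removed (0.0397), and the second with the totals implied by RPKM (0.0497).

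Cdkn2c, the p18 inhibitor, had 41 to 80 counts per library. Its level was 12.2 and 8.93 CPM in the KO pair, 5.88 and 8.49 in the Het pair, 7.46 and 8.06 in the WT pair and 5.42 and 7.05 in the SmoM2 pair. Both KO-labelled libraries lay above the rest by a small margin, and no comparison passed by edgeR in the main analysis. Its largest difference lay between KO and SmoM2, at 0.76 (SE 0.30, edgeR adjusted p 0.0703). With the totals implied by RPKM it passed, at 0.86 (adjusted p 0.0458). Of the 9 tested genes, Cdk4 and Cdkn2c were the 2 with both KO-labelled libraries above all others, against the 13.1% of all tested genes given above.

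**Figure D3:**
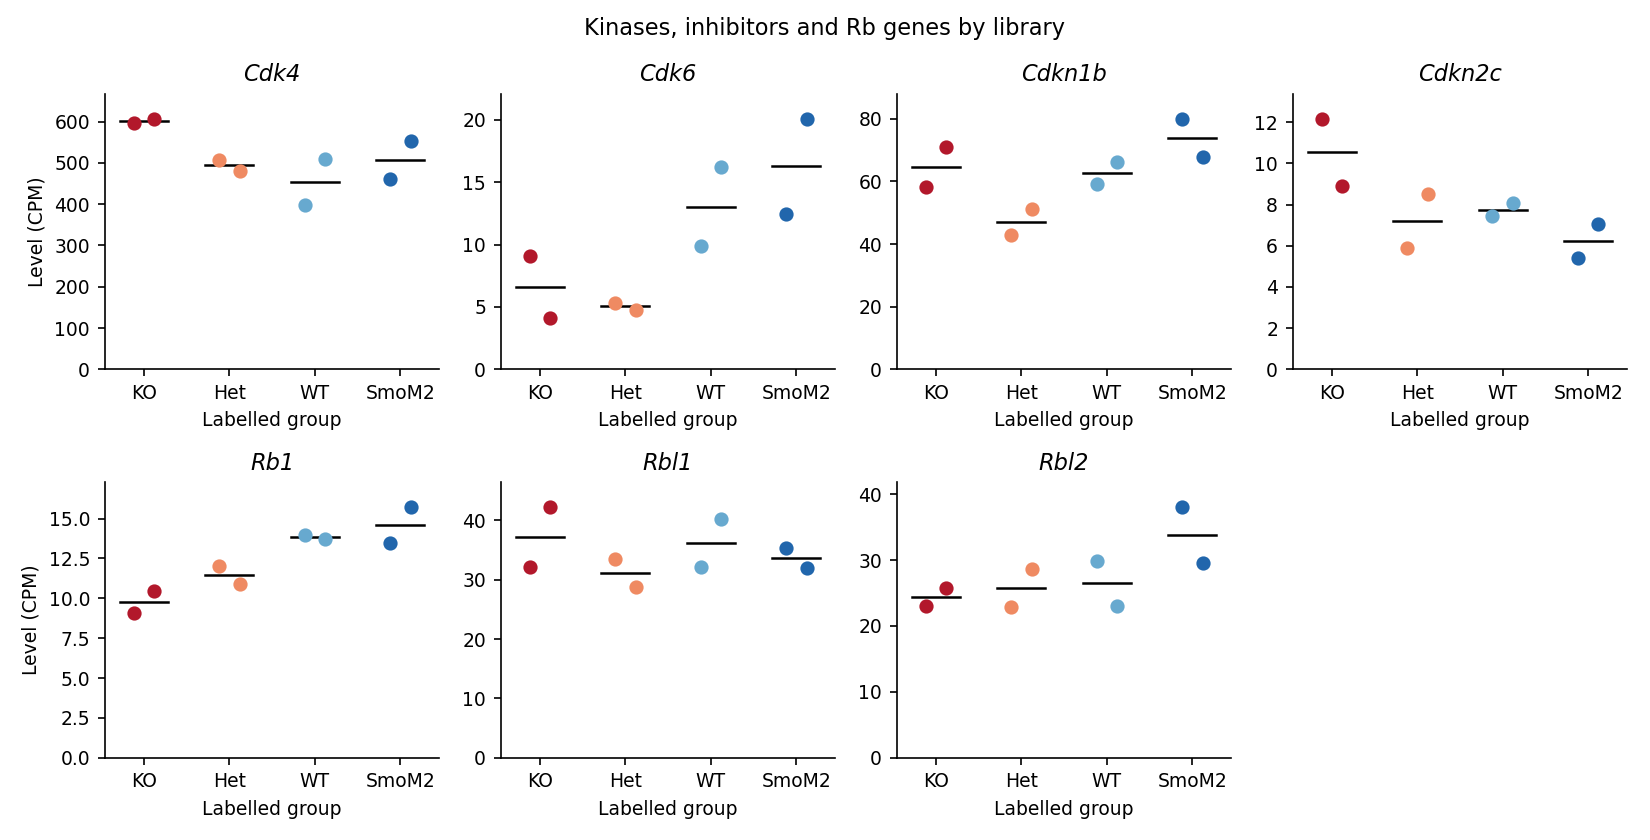
Levels of Cdk4, Cdk6, Cdkn1b, Cdkn2c, Rb1, Rbl1 and Rbl2 in CPM on linear axes from 0, by labelled group; points are the 2 libraries of a group and bars their mean. Cdk6 is at most 9.08 in the KO and Het libraries and at least 9.88 in the others, and Rb1 means climb from 9.76 in KO to 14.6 in SmoM2.

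The retinoblastoma genes were not called by edgeR in any comparison of the main analysis. Rb1, the founding member, was at 9.08 and 10.4 CPM in the KO pair, 12.0 and 10.9 in the Het pair, 14.0 and 13.7 in the WT pair and 13.5 and 15.7 in the SmoM2 pair. The 4 libraries with low Smo lay below the 4 with high Smo, and how many of all genes do so was not counted. Rb1 differed by -0.50 between KO and WT (SE 0.22, edgeR adjusted p 0.118). Between KO and SmoM2 it differed by -0.58 (SE 0.22, edgeR adjusted p 0.0642). With 41 to 150 counts per library, changes of this size could not be told from no change here.

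Rbl1, whose protein p107 is made mainly in dividing cells, was at 32.1 and 42.2 CPM in the KO pair, 33.4 and 28.7 in the Het pair, 32.1 and 40.3 in the WT pair and 35.3 and 31.9 in the SmoM2 pair. The KO pair overlapped each of the other pairs, and the lowest edgeR adjusted p of any comparison was 0.402. Rbl2, whose protein p130 is abundant in resting cells, was at 23.0 and 25.7 CPM in the KO-labelled and 22.9 and 28.7 in the Het-labelled libraries. It was at 29.9 and 23.1 CPM in the WT-labelled and 38.0 and 29.6 in the SmoM2-labelled libraries. The KO- and SmoM2-labelled libraries of Rbl2 did not overlap, with a difference of -0.47 (SE 0.20, edgeR adjusted p 0.0981) that did not pass. It passed with sex as a covariate, at -0.65 (adjusted p 0.0219), and without a filter on low counts, at -0.50 (adjusted p 0.0495).

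Counted over the 9 tested genes, KO against WT gave 2 calls, both higher (Ccnd2 and Ccnd3), where 23.0% of the 13459 tested genes were called, 11.6% higher and 11.4% lower. Het against WT gave 2 calls, Ccnd3 higher and Cdk6 lower, against a background of 25.3% (13.1% higher, 12.2% lower). SmoM2 against WT gave 0 by edgeR's quasi-likelihood test, against 0.223% of all genes (0.156% higher, 0.0669% lower). There Ccnd2 was the 1 gene with an unadjusted p under 0.05, and DESeq2 also called 0. KO against Het gave 0 by edgeR, against 9.43% (4.33% higher, 5.10% lower), with Cdkn1b the 1 gene at an unadjusted p under 0.05, and DESeq2 called 0. KO against SmoM2 gave 2 calls, Ccnd3 higher and Cdk6 lower, against 32.5% (16.5% higher, 16.0% lower). Het against SmoM2 gave 3, Ccnd3 higher and Cdk6 and Cdkn1b lower, against 33.7% (16.9% higher, 16.7% lower). A test over all 4 groups called Ccnd2, Ccnd3, Cdk6 and Cdkn1b, or 4 of 9, where 41.0% of all genes were called. With 2 of 9 called in KO against WT and 4 of 9 over all groups, the shares lay near these backgrounds.

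Pairs of libraries that did not overlap were common throughout the table. They were found for 6 of the 9 genes in KO against WT, where 62.0% of all tested genes did not overlap, and for 4 in Het against WT (66.9% of all genes). The count was 4 in SmoM2 against WT (35.8%), 5 in KO against Het (56.9%), 6 in KO against SmoM2 (67.1%) and 6 in Het against SmoM2 (70.9%).

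The median change of the 9 genes was 0.04 in KO- against WT-labelled libraries, beside 0.03 over all tested genes. It was -0.12 in Het- against WT-labelled and 0.16 in SmoM2- against WT-labelled libraries, beside -0.02 and 0.00 over all genes. The first 3 comparisons share the WT-labelled libraries. In KO against Het the median was 0.29, beside 0.02 over all genes. For KO against SmoM2 it was -0.02 (all genes 0.04), and for Het against SmoM2 -0.35 (all genes -0.01).

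**Figure D4:**
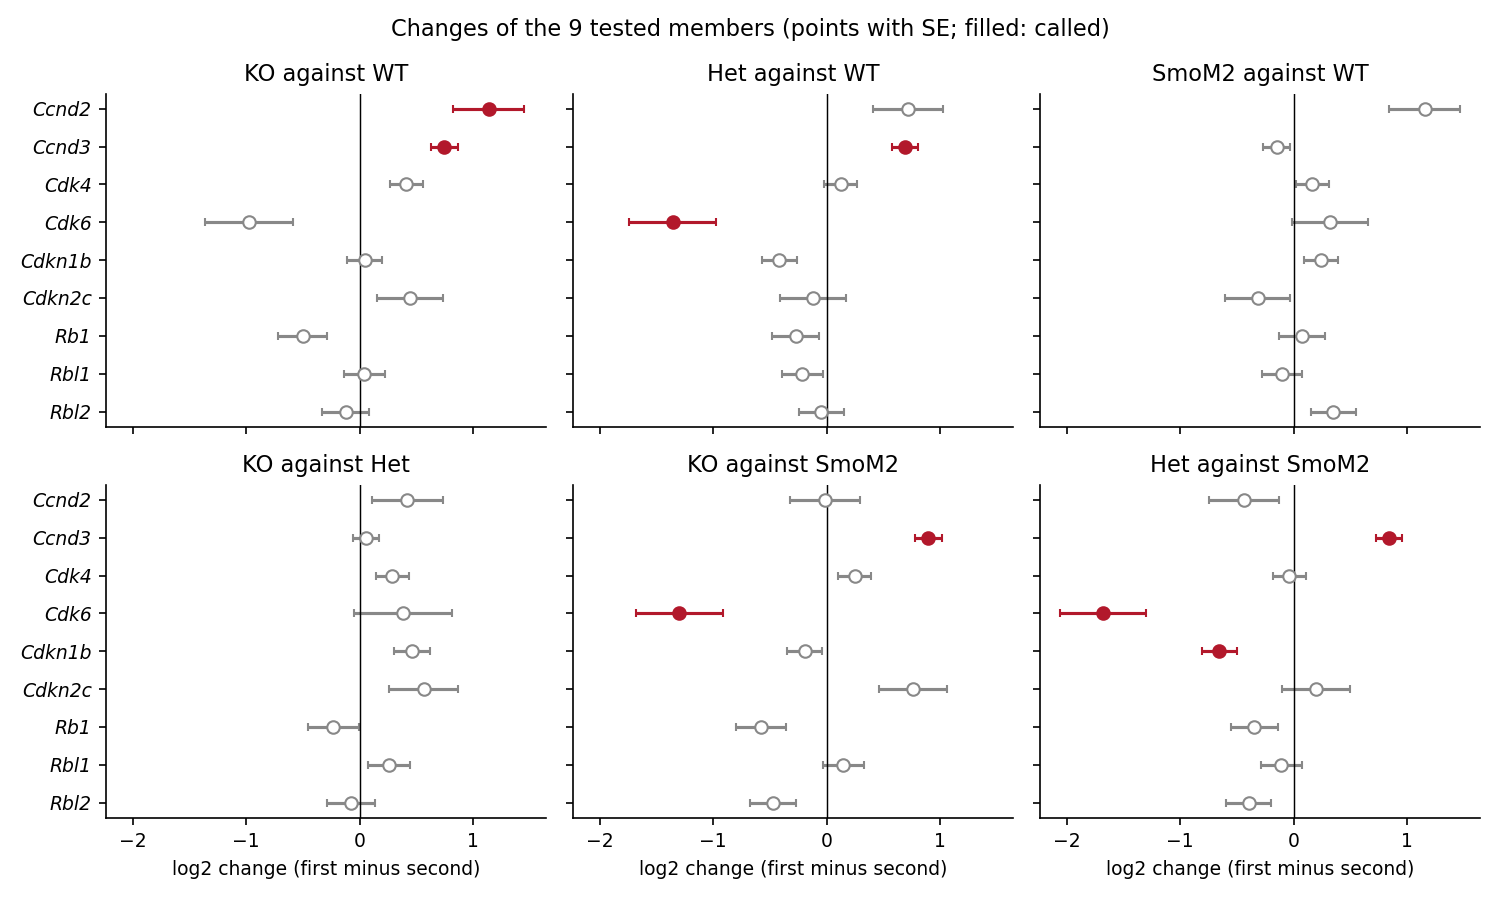
Log2 changes of the 9 tested genes in 6 comparisons, each titled first against second group; points are edgeR estimates with their SE, and filled points have an adjusted p under 0.05. Ccnd3 is filled in the 4 comparisons of KO or Het with WT or SmoM2 (0.69 to 0.89), and no point is filled in SmoM2 against WT or in KO against Het.

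Other genes of the G1 pathway were taken from a list of 34, of which 33 were tested. In KO- against WT-labelled libraries 7 rose and 2 fell, where 11.6% of all genes rose and 11.4% fell. Their median change was 0.20 without Cdkn2b, which was at or near 0. In Het- against WT-labelled libraries 5 rose and 2 fell, where 13.1% of all genes rose and 12.2% fell, with a median of 0.09 without Cdkn2b. In SmoM2 against WT 0 were called by edgeR (0.223% of all genes) and by DESeq2, with 2 at an unadjusted p under 0.05. In KO against Het 1 was called, Gsk3b, beside 9.43% of all genes. From SmoM2 to KO 4 rose and 5 fell, where 16.5% of all genes rose and 16.0% fell. From SmoM2 to Het 3 rose and 4 fell, where 16.9% of all genes rose and 16.7% fell. Cdkn2b was among those that fell in both. The count of 9 in KO against WT was 3 without KO-labelled replicate 1 or WT-labelled replicate 1, 4 without KO-labelled replicate 2 and 4 with the stress covariate. The count of 7 in Het against WT was 1 without Het-labelled replicate 1, 3 without Het-labelled replicate 2 or WT-labelled replicate 1, and 0 with the stress covariate.

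Among the E2F and DP factors, which act downstream of the Rb proteins, 3 of 10 were called in KO- against WT-labelled libraries and the same 3 in Het- against WT-labelled libraries, where 23.0% and 25.3% of all genes were called. Both comparisons share the WT-labelled libraries. E2f1, an activator of S phase genes, was at 79.1 ± 3.12 CPM in the KO pair, 85.0 ± 5.45 in the Het pair, 49.4 ± 17.1 in the WT pair and 52.3 ± 3.22 in the SmoM2 pair (SD, n = 2). It rose by 0.68 (SE 0.20, edgeR adjusted p 0.0282) in KO- and by 0.79 (SE 0.19, edgeR adjusted p 0.0129) in Het- against WT-labelled libraries. E2f3, another activator, rose by 0.52 (edgeR adjusted p 0.0156) and 0.48 (0.0178). Tfdp2, a DNA-binding partner of E2F proteins, was at 74.4 and 90.8 CPM in the KO-labelled and 73.1 and 84.2 in the Het-labelled libraries. It was at 156 and 143 CPM in the WT-labelled and 158 and 141 in the SmoM2-labelled libraries, so the libraries with low and high Smo did not overlap. Tfdp2 changed by -0.86 (SE 0.14, edgeR adjusted p 0.00218) in KO- and by -0.93 (SE 0.14, edgeR adjusted p 0.00121) in Het- against WT-labelled libraries.

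Of the other CDK inhibitors, Cdkn1c (p57), an inhibitor made in many cell types as they stop dividing, was the highest. It was at 346 and 310 CPM in the KO pair, 450 and 278 in the Het pair, 131 and 197 in the WT pair and 224 and 240 in the SmoM2 pair. It rose by 1.00 (SE 0.22, edgeR adjusted p 0.00968) in KO- and by 1.15 (SE 0.22, edgeR adjusted p 0.00432) in Het- against WT-labelled libraries. Against SmoM2-labelled libraries its rise of 0.65 in Het passed (edgeR adjusted p 0.0399), and that of 0.50 in KO did not (0.106). Cdkn1a (p21), a target of p53, moved the other way. It was at 12.0 and 19.4 CPM in the KO pair, 7.35 and 12.4 in the Het pair, 41.7 and 22.0 in the WT pair and 23.0 and 45.4 in the SmoM2 pair. It changed by -1.71 (SE 0.40, edgeR adjusted p 0.0111) in Het- against WT-labelled libraries, and its KO- against WT-labelled difference of -1.03 (edgeR adjusted p 0.0837) did not pass. Cdkn2d (p19) rose from WT to KO by 0.64 (edgeR adjusted p 0.0369), while its difference of 0.50 from SmoM2 to KO did not pass (edgeR adjusted p 0.0733). Cdkn2b (p15) had 13 and 11 counts in the SmoM2-labelled libraries and at most 2 in any other. At these low counts it was called lower than SmoM2 in KO (edgeR adjusted p 0.0233) and in Het (0.0122). Cdkn2a, with at most 5 counts in any library, was not tested.

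In the cyclin E arm, which takes over from the D cyclins late in G1, Cdc25a rose by 0.65 (edgeR adjusted p 0.0153) in KO- and by 0.53 (0.0297) in Het- against WT-labelled libraries. Cdk2 rose by 0.41 (edgeR adjusted p 0.0230) in Het- against WT-labelled libraries, and Ccne1 and Ccne2 were called in neither. Among genes for the turnover of D cyclins and p27 are Skp2 and Cks1b, which act together in p27 degradation. They rose in KO- against WT-labelled libraries by 0.59 (edgeR adjusted p 0.0384) and 0.61 (0.0163). From SmoM2 to KO, Cks1b passed at 0.61 (edgeR adjusted p 0.0118), and Skp2 at 0.40 (0.113) did not. Gsk3b, a kinase that can mark cyclin D1 for degradation, was at 136 ± 14.2 CPM in the KO pair, 209 ± 29.1 in the Het pair, 242 ± 49.6 in the WT pair and 275 ± 23.7 in the SmoM2 pair (SD, n = 2). From WT to KO it changed by -0.83 (SE 0.16, edgeR adjusted p 0.00518). From Het to KO it changed by -0.62 (SE 0.16, edgeR adjusted p 0.0378). No gene of the CDK-activating kinase or the MuvB core, which binds Rbl1 and Rbl2, was called in any of the 6 comparisons. These lists hold only 3 and 5 genes, and 0.223% to 33.7% of all genes were called in a comparison.

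**Figure D5:**
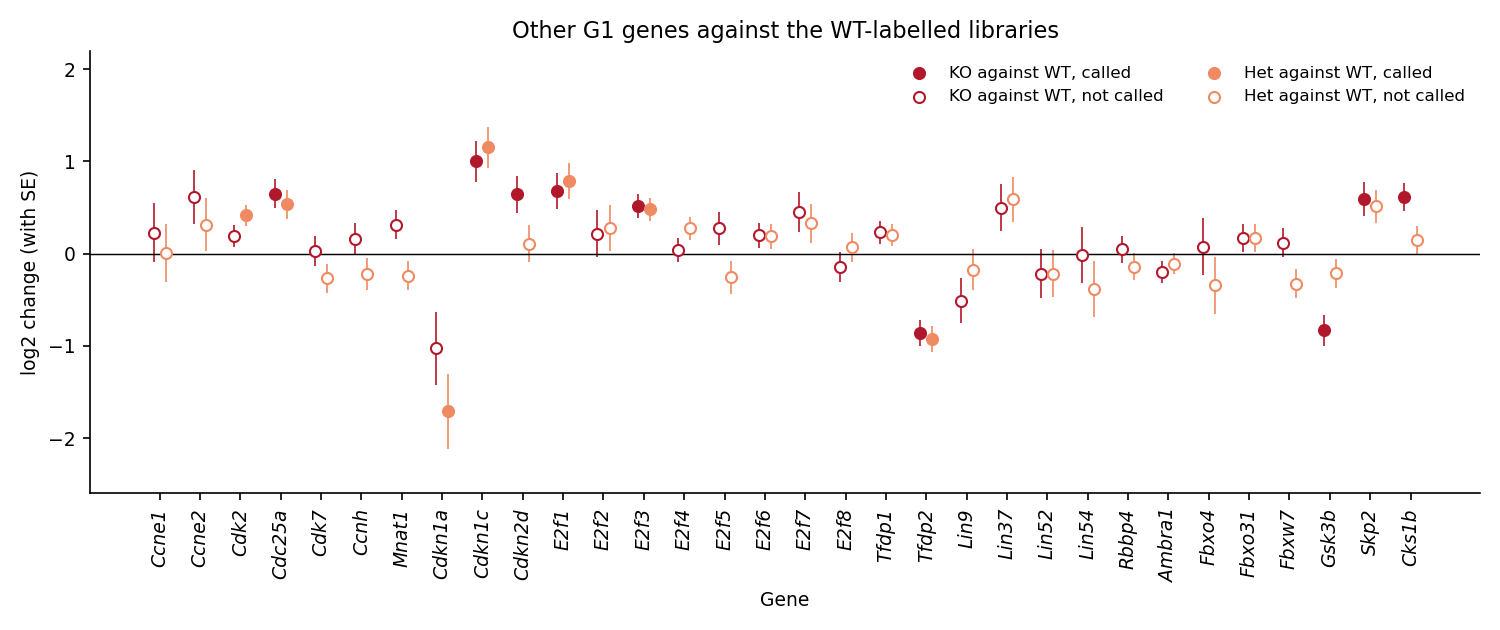
Log2 changes of 32 other G1 genes in KO and Het against WT libraries, with SE; filled points have an edgeR adjusted p under 0.05, and Cdkn2a and Cdkn2b, at or near 0, are left out. E2f1, E2f3, Cdc25a and Cdkn1c are filled above 0 and Tfdp2 below 0 in both comparisons, which share the WT libraries.

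Replication genes, many of which E2F factors drive, were counted as a readout of S phase. Of 18, all tested, 8 rose and 0 fell in KO- against WT-labelled libraries, where 11.6% of all genes rose and 11.4% fell. In Het- against WT-labelled libraries 4 rose and 0 fell, where 13.1% of all genes rose and 12.2% fell. In SmoM2 against WT 0 were called by edgeR (0.223% of all genes) or DESeq2, with 0 at an unadjusted p under 0.05. Leading rises in KO- against WT-labelled libraries were Tyms (0.93, SE 0.18, edgeR adjusted p 0.00418), Tk1 (0.85), Pcna (0.71) and Mcm6 (0.67). The summed level was 2254 and 2778 CPM in the KO pair, 2347 and 2196 in the Het pair, 1611 and 2195 in the WT pair and 1927 and 2207 in the SmoM2 pair. WT-labelled replicate 2 thus lay beside the Het-labelled libraries. Of 13 G2/M genes 4 rose and 0 fell in KO- against WT-labelled libraries, beside the same 11.6% and 11.4% of all genes, led by Plk1 (0.72, SE 0.16, edgeR adjusted p 0.00988), Cdca8, Cdk1 and Aurka. Their sum ranged from 1039 to 1399.6 CPM in the KO-labelled and from 1034 to 1127 CPM in the WT-labelled libraries, which overlapped. In Het- against WT-labelled libraries 2 G2/M genes rose and 0 fell, beside the same 13.1% and 12.2% of all genes. Between KO and Het, 0 of either list were called by edgeR or DESeq2 (9.43% of all genes by edgeR). From SmoM2 to KO, 6 replication and 7 G2/M genes rose and 0 fell, where 16.5% of all genes rose. From SmoM2 to Het, 1 and 4 rose and 0 fell, where 16.9% of all genes rose. In KO against SmoM2, both counts were smaller without KO-labelled replicate 2 or without either SmoM2-labelled library. In Het against SmoM2, the G2/M count was smaller without any single Het- or SmoM2-labelled library. The counts below are those of KO against WT unless another comparison is named. Without WT-labelled replicate 1 the replication count was 2, and without KO-labelled replicate 2 it was 3. It was 4 without either Het-labelled library or SmoM2-labelled replicate 2. The G2/M count fell to 1 without KO-labelled replicate 2 or either WT-labelled library, and to 2 without either Het-labelled library. Both counts were 0 with the stress score as a covariate. Over the 16 alternatives the replication count reached 13, with sex as a covariate and with the totals implied by RPKM, and the G2/M count 6. In Het- against WT-labelled libraries the replication count ran from 0, without Het-labelled replicate 1 or with the stress covariate, to 6.

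Among the 12458 tested genes with an average log2 CPM of at least 1, the 5 whose log2 CPM followed that of Ccnd1 most closely over the 8 libraries were Clec18a (Pearson's r 0.979), Stx18 (0.971), Chchd3 (0.968), Kcnmb4os2 (0.967) and Cox6c (0.966). These values describe libraries that share groups, and no test was made. Clec18a had group means of 22.5 CPM in the KO pair, 1.88 in the Het pair, 4.07 in the WT pair and 7.25 in the SmoM2 pair, the same order as Ccnd1. Since it was picked for its r with Ccnd1, a like order follows from the choice. Its level in Het-labelled replicate 1 was only 0.535 CPM. Of the 9 tested genes, Cdk4 had the highest r with Ccnd1 at 0.755, which ranked 614 among the 12458. Cdkn2c (0.670), Cdkn1b (0.592) and Ccnd2 (0.584, rank 1569) followed. Ccnd3 had 0.156, and Rb1 had the lowest at -0.407. The Ccnd1 level in KO, which was part of the choice of genes, enters every r.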

How the data were processed

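Groups and replicate numbers came from the sample titles, and all 8 libraries were used. The values came from a table of the series. The deposited read counts per gene, the authors' RPKM values and gene lengths are named in the file headers. STAR, featureCounts and Subread with build mm10 are named in the submitters' processing notes. The annotation and the strand setting are not given in the sources used here.

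The count test was edgeR 4.0.16 (R 4.3.3) after filterByExpr, which left 13459 genes, with TMM scaling. A quasi-likelihood model of 4 group means was fitted to all 8 libraries, with 4 residual degrees of freedom. P-values were two-sided, Benjamini-Hochberg adjustment covered every tested gene, and genes under 0.05 were called. SEs are those the statistic implies. CPM are counts scaled by the TMM library size, and log2 CPM used a prior count of 2. With 2 libraries against 2, no exact permutation test can go below 0.333, so none was run. Replicates differed by more than counting noise in every group. Alternatives were DESeq2 1.42.0, other scaling, filter, trend, block and covariate settings, and leaving out each library. The method was tested on simulated data.

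All 10 members, all 34 other G1 genes, up to 4 called genes of each cell cycle list and the 5 genes most like Ccnd1 may be named. An early nephron marker of the planned list is not reported here and was left out of its sum. Members and lists were chosen with earlier results of these data known. Coordinates are those of GENCODE M21 on GRCm38, the same build as mm10, and promoter sequences are from RefSeq (GRCm38.p6).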

Additional observations from a re-analysis of the deposited data

How the results depend on the processing

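Over 16 alternatives, 19 log2 differences of tested members printed above kept their direction in all 304 values. These 19 are the member differences with an edgeR unadjusted p under 0.05 in the main analysis. A kept direction was made likely by this choice, and smaller differences were not counted. Calls were less stable. Where a library was left out, the lone library of its group was assumed to vary like the other groups. Of the 9 tested members, the numbers called by leaving out each library ranged from 1 to 3 in KO- against WT-labelled (2 in the main analysis), from 1 to 2 in Het- against WT-labelled (2), from 0 to 1 in SmoM2- against WT-labelled (0), from 0 to 0 in KO- against Het-labelled (0), from 1 to 2 in KO- against SmoM2-labelled (2), from 2 to 4 in Het- against SmoM2-labelled libraries (3) and from 2 to 4 over all 4 groups (4). Without a filter on low counts 4, 4 and 1 members were called in KO-, Het- and SmoM2- against WT-labelled libraries. The totals implied by RPKM gave 1 in KO- against Het-labelled libraries. Removing the length trend, or GC and length trends, gave 1 in KO- against SmoM2-labelled libraries. The GC and length trends also gave 1 in Het- against WT-labelled libraries and 2 over all groups. Sex as a covariate gave 1 in SmoM2- against WT-labelled and 2 in KO- against Het-labelled libraries. In the latter, sex and label coincide, and the sex effect came from the WT- and SmoM2-labelled groups alone. The stress score as a covariate gave 1 in KO- against WT-labelled libraries, 0 in Het- against WT- and against SmoM2-labelled libraries and 1 over all groups. The GC, sex and stress alternatives were chosen after seeing the data, and the cause of these shifts was not tested. The stress score was highest in both Het-labelled libraries, so calls lost with it in Het comparisons cannot be assigned to stress or to the label. The lower Ccnd1 level of the KO-labelled group was 2.19 to 2.83 times the highest other library in the 12 alternatives that give levels. This ratio is a description, since the Ccnd1 level in KO was part of the choice of genes. Leaving out a library can change it only where that library sets it. It was 2.83 without KO-labelled replicate 1, 2.36 without SmoM2-labelled replicate 2 and 2.26, as in the main analysis, without any other.

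The labels tie the replicate numbers to no shared litter, batch or day. Correlations of the replicate differences between groups ran from -0.06 to 0.10 in 5 of the 6 pairs of groups, and the highest, 0.39, was that of WT and SmoM2, where replicate 1 is male and replicate 2 female in both. With the replicate block, 1 member (Ccnd2, adjusted p 0.0395) was called in SmoM2- against WT-labelled libraries, and Ccnd2 in Het- against WT-labelled (0.0219) and Cdk4 in KO- against WT-labelled libraries (0.0463) also passed.

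Over all genes, the number called ranged from 1330 to 3829 in KO- against WT-labelled (3100 in the main analysis), from 66 to 4093 in Het- against WT-labelled (3403), from 5 to 356 in SmoM2- against WT-labelled (30), from 4, without Het-labelled replicate 1, to 2217 in KO- against Het-labelled (1269), from 2452 to 4898 in KO- against SmoM2-labelled (4372), from 1323 to 5119 in Het- against SmoM2-labelled libraries (4529) and from 3373 to 6789 over all groups (5515). The KO-labelled libraries were the shallowest, and Cdk6, Cdkn2c and Rb1, with as few as 19 to 41 counts there, have the least precise values.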

Other observations

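Within groups, Ccnd1 varied more than Ccnd3. The library numbered 2 was the higher for Ccnd1 in all 4 groups, by 1.25 times for KO, 2.47 for Het, 2.91 for WT and 1.58 for SmoM2. For Ccnd2 the ratios were 1.02, 1.33, 2.45 and 1.31, while those of Ccnd3 lay between 0.891 and 1.07. The numbers name libraries and carry no order. The library numbered 2 was female and the other male in the WT- and SmoM2-labelled groups, while the KO-labelled libraries were both male and the Het-labelled both female.

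Stromal markers differed more within the KO-labelled group than any other list examined, with summed levels of 665 CPM in replicate 1 and 169 CPM in replicate 2. In the other groups they lay between 249.6 and 665 CPM. Endothelial markers reached at most 2.72 CPM in all 8 libraries. Erythroid markers summed to 8.49 and 29.9 CPM in the KO pair, 11.04 and 16.2 in the Het pair, 2.61 and 3.92 in the WT pair and 2.31 and 4.81 in the SmoM2 pair. Of 4 erythroid markers 2 were tested, and both rose in KO- against WT-labelled libraries by edgeR, with a median log2 change of 2.88. There 11.6% of all genes rose. Immune markers summed to 13.9 and 17.3 CPM in the KO pair, 43.1 and 46.8 in the Het pair, 25.2 and 29.8 in the WT pair and 24.5 and 31.1 in the SmoM2 pair. The part of these markers in the results above was not tested. The 7 nephron progenitor markers summed to 4001 and 3400 CPM in the KO-labelled and 4719 and 4207 CPM in the Het-labelled libraries, against 2850 to 3258 CPM in the WT- and SmoM2-labelled libraries.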
